A study of Mus musculus with 6 samples.

Results

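The genes described here are 9 genes whose products shorten or remove the poly(A) tails of maternal mRNAs, or bring the tail-shortening machinery to them. They were taken by gene symbol from the deposited table, which lists 53023 genes. The deadenylation genes are the 6 genes Btg4, Cnot1, Cnot6, Cnot6l, Cnot7 and Cnot8. The RNA-binding adaptors are the 3 genes Zfp36l2, Pabpn1l and Ythdf2. All 9 were among the 16100 genes that had an FPKM (fragments per kilobase of gene scaled to the library total, a level that can be compared between genes) reaching 1 in 2 or more libraries and were tested.

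RNA-seq was performed on ICR mouse embryos at the 2-cell stage, 28 h post insemination (hpi), in 3 groups of 2 libraries, each library being made from 5 pooled embryos without their zona pellucida. Embryos of the PIASy-WT group carried injected mRNA for HA-tagged PIASy, a SUMO ligase encoded by Pias4. Embryos of the PIASy-Mut group carried mRNA for the HA-tagged C335F form, a mutant of the ligase. Each mRNA was injected into the zygote cytoplasm at 100 ng/µl between 1.5 and 3 hpi, injected embryos were picked by fluorescence at 9 hpi, and the control group, non-injection, received no injection, so that injection itself cannot be told apart from its content when an injected group is compared with non-injection. The study asked what an excess of this maternal protein does to the embryonic transcriptome.

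In mammals, transcripts stored in the oocyte are removed around meiotic maturation, fertilization and the start of embryonic transcription, and shortening of the poly(A) tail is usually the first step. The tail is removed by the CCR4-NOT complex, which is assembled on the scaffold CNOT1 and carries a deadenylase of the CCR4 type (CNOT6 or CNOT6L) and a deadenylase of the CAF1 type (CNOT7 or CNOT8). BTG4, an oocyte and early embryo member of the BTG/TOB family, binds the CAF1 subunit and links the complex to the translation machinery on maternal mRNAs. ZFP36L2 brings the complex to AU-rich elements, YTHDF2 brings it to m6A-modified mRNAs, and PABPN1L is an oocyte poly(A)-binding protein that works together with BTG4.

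The 3′ ends of these mRNAs are shown because maternal mRNAs are themselves stored with short tails and lengthened through elements near their ends. The last 100 bases of the principal GENCODE M21 transcript were searched on the sense strand for the cytoplasmic polyadenylation element letters TTTTAT or TTTTAAT, and for the polyadenylation signal letters AATAAA or ATTAAA, and the 2 kinds may overlap by a few bases. Of 10370 genes searched in this way, 19.8% held the first kind, 82.3% held the second and 16.8% held both. The TTTTAT letters were found in 3 of the 8 decay genes searched, namely Btg4, Cnot1 and Cnot7. Capitals mark these letters in the stretches below, which are 30 bases each on mm10, for Btg4 at chr9:51119807-51119836 (+), Cnot1 at chr8:95719494-95719523 (−), Cnot7 at chr8:40493036-40493065 (−), Cnot6l at chr5:96070333-96070362 (−) and Ythdf2 at chr4:132184912-132184941 (−).
Btg4: ctTTTTATgtctttttaaaagtttgattta
Cnot1: gaTTTTATatatgtgagtacactgatgctg
Cnot7: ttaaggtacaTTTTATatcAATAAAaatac
Cnot6l: taggcAATAAAtggccattttgcaaccgca
Ythdf2: catttaATTAAAaaaaatgtatgtgcatcg
Cnot7 had both kinds of letters within its stretch, Btg4 and Cnot1 had the TTTTAT letters without a polyadenylation signal in the last 100 bases, and Cnot6l and Ythdf2 had a signal alone. Zfp36l2 and Pabpn1l also had a signal alone, and Cnot6 had neither.

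The start sites of Btg4 and Ythdf2 are shown because these genes had the largest positive and the largest negative fold change among the 9 in PIASy-WT. The stretches run from 250 bases before to 50 bases after the RefSeq start on GRCm38.p6, at chr9:51115751-51116050 (+) for Btg4 and chr4:132212207-132212506 (−) for Ythdf2. They were searched on both strands for the TATA box letters TATAAA, present in 13.6% of 32851 RefSeq promoters of this length. The CCAAT box letters (37.4% of these promoters) and the E-box letters CANNTG (72.3%) were searched likewise. The Btg4 entry of the deposited table begins upstream of its stretch, at chr9:51060901 (+), and that start was not searched. Capitals mark a CCAAT.
Btg4: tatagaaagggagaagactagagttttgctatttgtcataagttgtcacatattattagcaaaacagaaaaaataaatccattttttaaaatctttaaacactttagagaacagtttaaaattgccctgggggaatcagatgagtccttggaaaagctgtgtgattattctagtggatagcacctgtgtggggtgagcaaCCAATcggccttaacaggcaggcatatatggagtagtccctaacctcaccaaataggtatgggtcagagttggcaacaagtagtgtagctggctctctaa
Ythdf2: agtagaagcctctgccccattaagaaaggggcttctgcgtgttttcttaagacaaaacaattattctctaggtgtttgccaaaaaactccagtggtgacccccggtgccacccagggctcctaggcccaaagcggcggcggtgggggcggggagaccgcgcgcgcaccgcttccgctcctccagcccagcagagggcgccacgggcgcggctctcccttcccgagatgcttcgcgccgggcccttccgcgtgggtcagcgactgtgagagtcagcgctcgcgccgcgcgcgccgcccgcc
The Btg4 stretch had a GC content of 39% and 1 CpG site, held 1 CCAAT and 2 CANNTG and no TATAAA. The Ythdf2 stretch had a GC content of 66.3% and 32 CpG sites, and none of the 3 motifs. The median of all promoters was a GC content of 52.7% and 7 CpG sites.

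Fragments on genes, recovered from the FPKM values, ranged from 871663 to 1363928 per library, and 3 fragments corresponded to a CPM (fragments scaled to a common library total) of 2.20 to 3.44. Pias4 was listed at an FPKM of 2.98 and 3.59 for non-injection, 862 and 611 for PIASy-Mut, and 610 and 579 for PIASy-WT, which joins the endogenous and the injected mRNA. The 6 markers of the 2-cell embryo were detected in every group, with a summed FPKM of 953 to 979 in non-injection, 1081 to 1106 in PIASy-Mut and 445 to 634 in PIASy-WT. Of 10 cumulus and granulosa cell markers, 3 exceeded 3 fragments in any library and Amh, Inha and Foxl2 were at 0 in all 6. Their summed FPKM was 2.19 to 3.05, 3.28 to 7.68 and 6.42 to 6.99 in the same order. Of 4 trophectoderm markers, Krt18 and Gata3 exceeded 3 fragments, and the summed FPKM was 1.97 to 3.93, 5.16 to 11.8 and 18.5 to 22.9. The PIASy-Mut libraries differed more from each other than the other pairs. The median absolute difference of log2(FPKM + 1) between replicates over 7030 genes with a mean FPKM of at least 5 was 0.61 in PIASy-Mut, 0.29 in non-injection and 0.30 in PIASy-WT. The labels call the libraries separate samples and do not say whether they came from separate matings or days, so p-values measure the spread between these samples. Levels are shares of each library. Poly(A) tail length was not measured, and its part in these levels was not tested. Spike-in RNA was added at lysis, but the table used here has 0 spike-in entries, so fewer contributing cells, less RNA per embryo and a smaller share of a transcript cannot be told apart.

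Levels differed widely within each group, from a mean FPKM of 2.06 for Zfp36l2 to 1207 for Btg4 in non-injection. Ranked by mean FPKM in non-injection embryos, the order was Btg4, Cnot7, Cnot6l, Cnot8, Ythdf2, Cnot6, Cnot1, Pabpn1l and Zfp36l2. Neighbours in this order did not overlap between libraries, except Pabpn1l and Zfp36l2. In PIASy-Mut, Cnot8 stood before Cnot6l, and Cnot8 overlapped Cnot6l, Cnot6l overlapped Ythdf2, Cnot1 overlapped Pabpn1l and Pabpn1l overlapped Zfp36l2. In PIASy-WT, Ythdf2 moved behind Cnot6, with which it overlapped, and Zfp36l2 and Pabpn1l again overlapped. The plot of levels by library shows this order and the shift of Ythdf2.

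**Figure D1:**
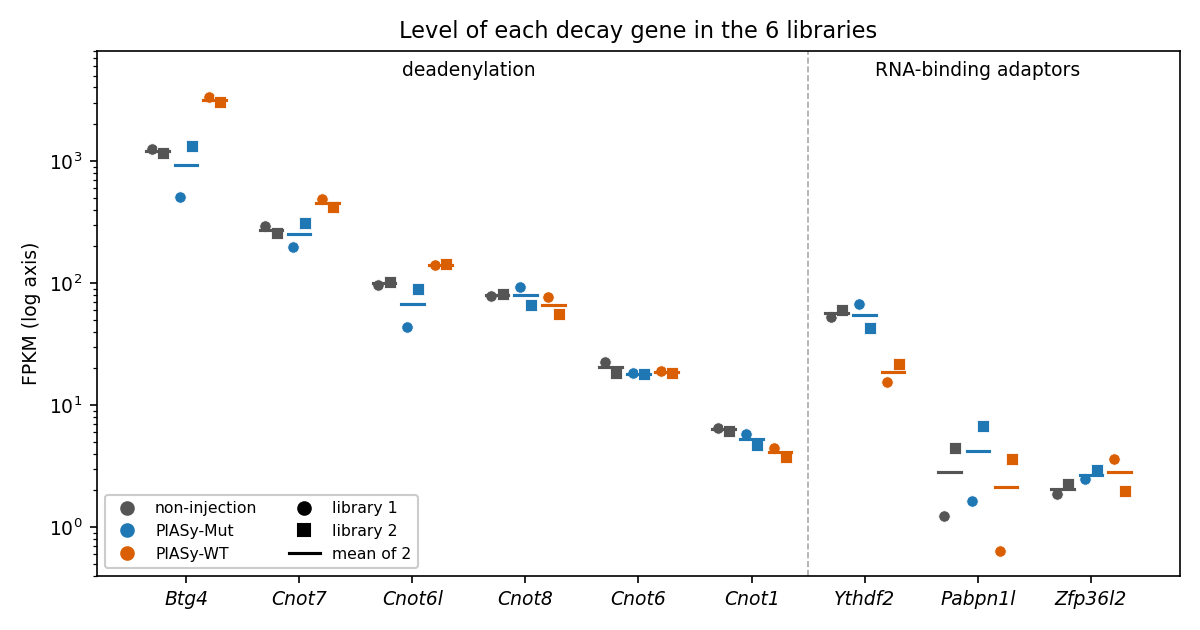
FPKM of the 9 decay genes in the 6 libraries on a log axis. Circles and squares are the first and second library of a group, horizontal bars are the mean of 2, and the dashed line separates deadenylation genes from RNA-binding adaptors. Both PIASy-WT libraries lie above the other 4 for Btg4, Cnot7 and Cnot6l, and below them for Ythdf2 and Cnot1.

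Btg4 (ENSMUSG00000032056.10, mm10 chr9:51060901-51119875, + strand) had an FPKM of 1247 and 1168 for non-injection, 508 and 1332 for PIASy-Mut, and 3354 and 3020 for PIASy-WT. Both PIASy-WT libraries were above the other 4, and PIASy-Mut 1 was the lowest library. These levels placed Btg4 at rank 29 and 34 of the tested genes for non-injection, 80 and 28 for PIASy-Mut, and 14 and 13 for PIASy-WT. Group means were 1207 ± 55.8 (SD, n = 2) in non-injection, 920 ± 583 (SD, n = 2) in PIASy-Mut and 3187 ± 236 (SD, n = 2) in PIASy-WT. The PIASy-WT mean was thus 2.64-fold that of non-injection and 3.46-fold that of PIASy-Mut.

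Neither difference passed the threshold of an adjusted p of 0.05. Its log2 fold change came to 1.40 against non-injection (95% interval 0.26 to 2.53, limma adjusted p = 0.118) and 1.95 against PIASy-Mut (0.82 to 3.09, limma adjusted p = 0.0604). The difference against non-injection passed in the fit of the 4 libraries compared alone (limma adjusted p = 0.0246), where PIASy-Mut did not enter the estimate of spread, and in the fits without PIASy-Mut 1 (0.0238) or without PIASy-Mut 2 (0.0229). In these fits 14.2%, 14.1% and 14.4% of tested genes were called. Without PIASy-Mut 1 the log2 fold change against PIASy-Mut was 1.26 (limma adjusted p = 0.0978), and without PIASy-Mut 2 it was 2.65 (limma adjusted p = 0.0217). Of the 10 alternatives other than leaving out a library, 2 passed in each comparison. One in both was voom on recovered fragments. The other was the fit of the 4 libraries alone against non-injection. Against PIASy-Mut it was a filter at an FPKM of at least 5 (limma adjusted p = 0.0309, where 20.4% of tested genes were called). In PIASy-Mut, the log2 difference between the replicates was 1.39 for Btg4, larger than for 87.4% of the genes with a mean FPKM of at least 5.

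Cnot7 (ENSMUSG00000031601.16, mm10 chr8:40492540-40515847, − strand), which encodes a CAF1-type deadenylase, was the second most abundant of the 9. Its FPKM was 291 and 258 for non-injection, 197 and 308 for PIASy-Mut, and 491 and 417 for PIASy-WT. As for Btg4, both PIASy-WT libraries were above the other 4 and PIASy-Mut 1 was the lowest. The mean of 454 ± 52.6 (SD, n = 2) in PIASy-WT was 1.66-fold that of non-injection and 1.80-fold that of PIASy-Mut. The log2 fold changes of 0.72 (0.0067 to 1.44, limma adjusted p = 0.174) and 0.88 (0.16 to 1.59, limma adjusted p = 0.120) did not pass the threshold. The second was 0.55 without PIASy-Mut 1 (limma adjusted p = 0.234) and 1.20 without PIASy-Mut 2 (limma adjusted p = 0.0330).

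Cnot8 (ENSMUSG00000020515.13, mm10 chr11:58104153-58118594, + strand), the paralogue of Cnot7, did not share this pattern. Its FPKM was 79.0 and 81.5 for non-injection, 93.0 and 66.2 for PIASy-Mut, and 76.1 and 55.8 for PIASy-WT. PIASy-WT lay below non-injection and overlapped PIASy-Mut. Its log2 fold change came to -0.30 (-0.99 to 0.40, limma adjusted p = 0.529) against non-injection and -0.26 (-0.96 to 0.43, limma adjusted p = 0.580) against PIASy-Mut. The second of these turned to 0.081 after quantile normalization, and 7.82% of the 50-base stretches of Cnot8 also occur in another gene, chiefly Gm18860.

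Cnot6l (ENSMUSG00000034724.17, mm10 chr5:96070333-96164171, − strand) encodes a CCR4-type deadenylase with a known part in maternal mRNA decay. Its FPKM was 97.0 and 101 for non-injection, 43.4 and 90.0 for PIASy-Mut, and 140 and 142 for PIASy-WT. Again both PIASy-WT libraries were the highest and PIASy-Mut 1 the lowest. The mean of 141 ± 1.68 (SD, n = 2) in PIASy-WT was 1.42-fold that of non-injection (log2 fold change 0.51, -0.38 to 1.39, limma adjusted p = 0.407) and 2.12-fold that of PIASy-Mut (1.16, 0.27 to 2.05, limma adjusted p = 0.106). The second log2 fold change was 0.64 without PIASy-Mut 1 (limma adjusted p = 0.156) and 1.68 without PIASy-Mut 2 (limma adjusted p = 0.0219).

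Cnot6 (ENSMUSG00000020362.13, mm10 chr11:49671503-49712723, − strand), the other CCR4-type deadenylase, varied least. It had an FPKM of 22.5 and 18.5 for non-injection, 18.2 and 18.1 for PIASy-Mut, and 19.1 and 18.4 for PIASy-WT. PIASy-WT lay just above PIASy-Mut and overlapped non-injection. Its log2 fold change came to -0.12 against non-injection (-0.74 to 0.51, limma adjusted p = 0.800) and 0.047 against PIASy-Mut (-0.58 to 0.67, limma adjusted p = 0.934), and the first turned to 0.17 after quantile normalization and to 0.021 without non-injection 1.

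Cnot1 (ENSMUSG00000036550.16, mm10 chr8:95719451-95807464, − strand), the scaffold of the complex, had the lowest level per length of the 6 deadenylation genes. Its FPKM was 6.49 and 6.18 for non-injection, 5.76 and 4.74 for PIASy-Mut, and 4.48 and 3.75 for PIASy-WT, from 71 to 152 fragments per library. The 3 groups did not overlap each other, with PIASy-WT the lowest. Its log2 fold change came to -0.52 (-1.31 to 0.27, limma adjusted p = 0.340) against non-injection and -0.29 (-1.08 to 0.50, limma adjusted p = 0.597) against PIASy-Mut.

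Ythdf2 (ENSMUSG00000040025.17, mm10 chr4:132184912-132212303, − strand), the m6A reader, was the only gene of the 9 that passed the threshold. Its FPKM was 52.6 and 60.2 for non-injection, 67.4 and 42.7 for PIASy-Mut, and 15.3 and 21.7 for PIASy-WT, from 93 to 328 fragments per library. Both PIASy-WT libraries were below the other 4. The mean was 56.4 ± 5.34 (SD, n = 2) in non-injection, 55.0 ± 17.5 (SD, n = 2) in PIASy-Mut and 18.5 ± 4.49 (SD, n = 2) in PIASy-WT. Ythdf2 fell in PIASy-WT against non-injection, to a mean 3.04-fold lower (log2 fold change -1.57, -2.36 to -0.78, limma adjusted p = 0.0457), in a comparison in which 5.76% of all tested genes were called lower. Against PIASy-Mut the mean was 2.97-fold lower and just missed the threshold (log2 fold change -1.50, -2.30 to -0.71, limma adjusted p = 0.0502), where 6.01% of tested genes were called lower.

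The Ythdf2 call was narrow, and was lost when the replicate number was fitted as a block. Against non-injection its direction held in all 16 alternative settings with log2 fold changes of -1.81 to -1.28, and it passed in 5 of them, with limma adjusted p from 0.00567 to 0.263. Apart from the fit with the replicate number, given with the alternatives, it was lost without non-injection 1 (0.222), non-injection 2 (0.263), PIASy-WT 1 (0.222) or PIASy-WT 2 (0.231), where 1 group had a single library and 0 genes of the whole table were called (2590 to 2991 had an unadjusted p under 0.05), and with a pseudocount of 0.1 (0.0525) or 5 (0.0503), no filter (0.0772), quantile normalization (0.0653), centred libraries (0.0571) or eBayes without a trend (0.0760). Of its 50-base stretches, 7.49% also occur in other genes, chiefly Gm6823 and Gm8401.

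Zfp36l2 (ENSMUSG00000045817.8, mm10 chr17:84183931-84187947, − strand) was near the limit of detection. Its FPKM was 1.87 and 2.25 for non-injection, 2.47 and 2.92 for PIASy-Mut, and 3.63 and 1.97 for PIASy-WT, from 8 to 17 fragments per library. PIASy-WT overlapped both other groups. The log2 fold change of 0.28 relative to non-injection (-0.71 to 1.27, limma adjusted p = 0.679) turned to -0.040 without PIASy-WT 1, and that of 0.0079 against PIASy-Mut (-0.98 to 0.99, limma adjusted p = 0.996) took either sign with the setting.

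Pabpn1l (ENSMUSG00000069867.3, mm10 chr8:122619471-122622739, − strand) was detected by 1 to 7 fragments per library. Its FPKM was 1.23 and 4.45 for non-injection, 1.62 and 6.73 for PIASy-Mut, and 0.632 and 3.65 for PIASy-WT. The first library of each group was below the level of 3 fragments and the second was above it, so all groups overlapped. The exact Poisson interval for the single fragment in PIASy-WT 1 was 0.0160 to 3.52 FPKM, and it covers counting error only. No difference was detectable at this depth, the log2 fold change being -0.34 (-2.30 to 1.62) in the first and -0.71 (-2.67 to 1.25) in the second PIASy-WT comparison, each of which changed sign when single libraries were left out.

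**Figure D2:**
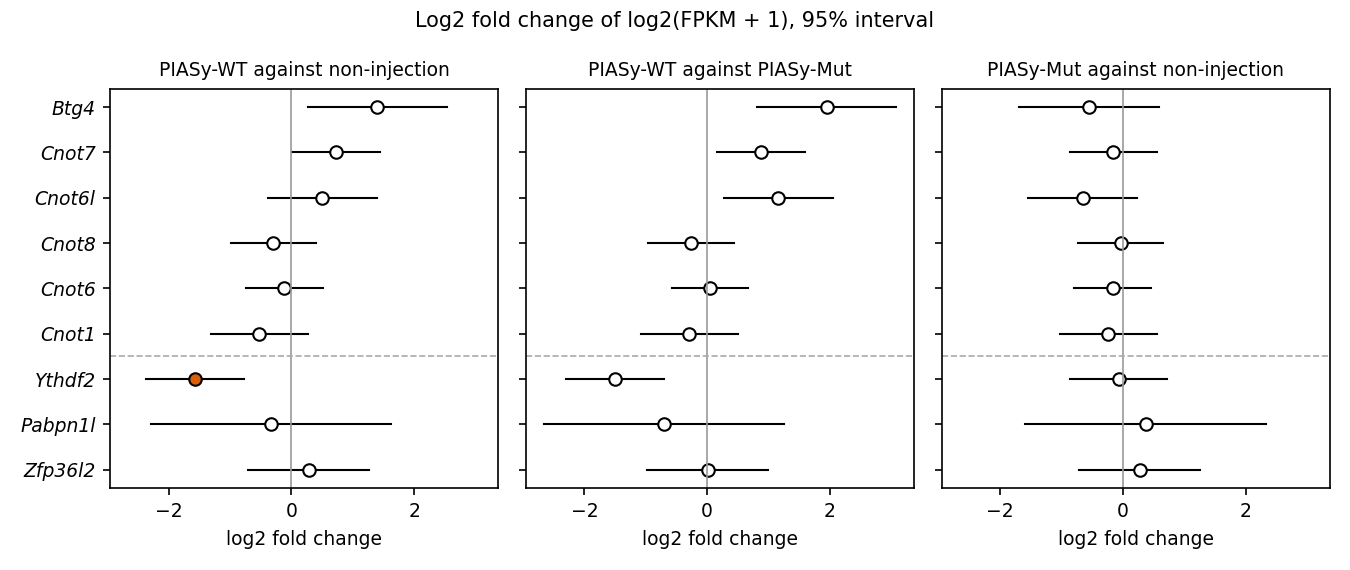
Log2 fold change of log2(FPKM + 1) for the 9 decay genes in the 3 comparisons, with 95% intervals from the limma fit of all 6 libraries. A filled point marks an adjusted p of at most 0.05, which Ythdf2 alone reached, at -1.57 in PIASy-WT against non-injection.

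Of the 9 genes, 1 was called in PIASy-WT against non-injection, beside 6.80% of all tested genes in either direction. In PIASy-WT against PIASy-Mut, 0 were called, beside 6.83% of tested genes, and 4 had an unadjusted limma p under 0.05, namely Btg4, Cnot6l, Cnot7 and Ythdf2, beside 27.7% of tested genes. Against non-injection, 3 genes, Btg4, Cnot7 and Ythdf2, had an unadjusted p under 0.05, beside 28.2%. With voom on the recovered fragments, Ythdf2, Btg4 and Cnot7 were called against non-injection (3 genes, beside 16.8% of tested genes), and these and Cnot6l against PIASy-Mut (4 genes, beside 15.0%). The same 4 genes were called against PIASy-Mut without PIASy-Mut 2, beside 16.3% of tested genes. That fit leaves PIASy-Mut 1 alone, the lowest library for Btg4, Cnot6l and Cnot7, and assumes that it varies like the other groups. The comparisons share the PIASy-WT libraries, so their values are not independent.

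The groups of PIASy-WT and non-injection libraries did not overlap for 6 of the 9 genes, beside 61.8% of all tested genes, and those of PIASy-WT and PIASy-Mut for 6, beside 56.5%. Both PIASy-WT libraries were above the other 4 for Btg4, Cnot7 and Cnot6l, 3 of 9 beside 19.9% of tested genes, and below them for Ythdf2 and Cnot1, 2 of 9 beside 24.4%. With 9 genes, these shares are not read as particular to them.

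When the deadenylation genes were set beside the adaptors, the medians stood on opposite sides of all tested genes in PIASy-WT. Against non-injection the median log2 fold change was 0.20 over the 6 deadenylation genes (3 positive, 3 negative), -0.34 over the 3 adaptors (1 positive, 2 negative) and 0.01 over all tested genes. Against PIASy-Mut it was 0.46 (4 positive, 2 negative), -0.71 (1 positive, 2 negative) and -0.03. The adaptor median is that of Pabpn1l, which was measured by a few fragments. The split within the deadenylation genes, from -0.52 for Cnot1 to 1.40 for Btg4 against non-injection, was wider than the distance between the medians.

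The 9 genes together took a CPM of 6596 and 6261 for non-injection, 3673 and 6714 for PIASy-Mut, and 13363 and 12057 for PIASy-WT. Btg4 alone made up 48.3% and 47.7% of these fragments for non-injection, 35.3% and 50.7% for PIASy-Mut, and 64.2% and 64.0% for PIASy-WT. Without Btg4 the other 8 genes took 3409 and 3275, 2375 and 3309, and 4789 and 4337 CPM in the same order. Both PIASy-WT libraries were thus highest with and without Btg4. Most of the sum without Btg4 came from Cnot7 (2858 and 2425 CPM in PIASy-WT) and Cnot6l (1444 and 1469). It therefore does not describe the remaining genes, of which Ythdf2 and Cnot1 were lowest in PIASy-WT. The summed FPKM of the 3 adaptors, most of it from Ythdf2, ran the other way, at 55.7 and 66.9 for non-injection, 71.5 and 52.3 for PIASy-Mut, and 19.6 and 27.3 for PIASy-WT.

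Within a library, the balance between paralogues was compared by the ratio of their FPKM, which does not depend on the library total. The ratio of Cnot6l to Cnot6 was 4.31 and 5.49 for non-injection, 2.39 and 4.99 for PIASy-Mut, and 7.35 and 7.73 for PIASy-WT. For Cnot7 to Cnot8 it was 3.68 and 3.16, 2.11 and 4.65, and 6.45 and 7.47 in the same order. For both pairs the PIASy-WT libraries had the highest ratios and PIASy-Mut 1 had the lowest. The ratio of Btg4 to Cnot7 was 4.29 and 4.53 for non-injection, 2.58 and 4.33 for PIASy-Mut, and 6.83 and 7.25 for PIASy-WT. The ratio of Btg4 to Ythdf2 was 23.7 and 19.4, 7.54 and 31.2, and 219 and 139. The plot of ratios shows the PIASy-WT libraries above the other 4 for all 4 ratios. The ratios with Btg4 are not between paralogues and were not planned. The order for Btg4 to Ythdf2 is fixed by the levels already given, Btg4 being highest and Ythdf2 lowest in PIASy-WT. These ratios are a description, and their differences were not tested.

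**Figure D3:**
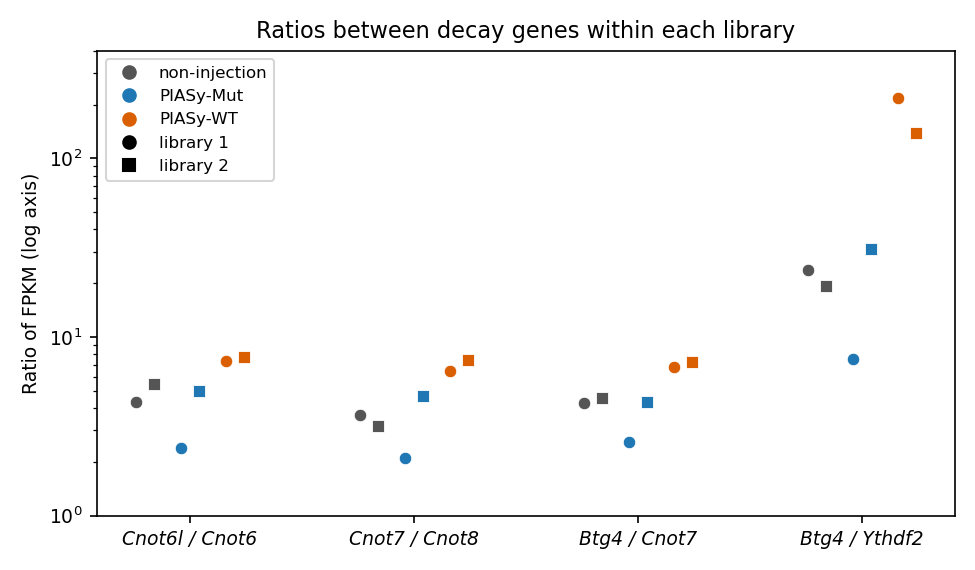
Ratio of FPKM between decay genes within each library, on a log axis. Circles and squares are the first and second library of each group. The Btg4 to Ythdf2 ratio, whose order is fixed by the levels of both genes, was 139 and 219 in PIASy-WT and at most 31.2 in the other 4 libraries.

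PIASy-Mut against non-injection showed 0 of the 9 genes called, and limma called 1 gene of the whole table (0.00621%), Pias4, while 718 genes had an unadjusted p under 0.05, 0 of the 9 among them. All 6 deadenylation genes had a negative log2 fold change, from -0.66 for Cnot6l (-1.54 to 0.23) to -0.032 for Cnot8 (-0.73 to 0.66), and the value for Btg4 was -0.55. Of all 16100 tested genes, 7303 were negative. The signs for Btg4 and Cnot7 rested on PIASy-Mut 1, without which the log2 fold changes were 0.14 and 0.17. The value of Cnot6l was -0.14 without PIASy-Mut 1 and -1.17 without PIASy-Mut 2. The sign for Cnot8 rested on PIASy-Mut 2, without which it was 0.21. Ythdf2 had a log2 fold change of -0.067 (-0.86 to 0.73), and the sign turned without PIASy-Mut 2 (0.26) or non-injection 2 (0.028). The groups did not overlap for 4 of the 9 genes, Cnot1, Cnot6, Cnot6l and Zfp36l2, beside 25.7% of tested genes.

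Other genes were taken from 6 lists with 105 tested genes, 5 lists of mRNA tail and decay pathways and 1 of maternal transcripts. In PIASy-WT, 8 of them were called lower against non-injection (7.62%, beside 5.76% of all tested genes) and 7 against PIASy-Mut (6.67%, beside 6.01%), and 0 were called higher in either comparison, beside 1.03% and 0.82% of all tested genes. In PIASy-Mut against non-injection 0 were called. The plot of lists shows the values of each gene.

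Among 11 other CCR4-NOT subunits and BTG/TOB proteins, 0 were called in either direction, and 2 had an unadjusted p under 0.05 in each PIASy-WT comparison, beside 28.2% and 27.7% of all tested genes. Their log2 fold changes against non-injection ran from -1.64 for Cnot10, a subunit at the N-terminal part of CNOT1, to 0.83 for Cnot3, with a median of -0.25. Against PIASy-Mut they ran from -1.60 for Cnot10 to 1.19 for Btg2, with a median of 0.35. Cnot10, Cnot3 and Btg2 are named here as the ends of these ranges, after their values were seen.

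Among 19 tested genes of 20 listed deadenylases and other tail enzymes, 2 were called lower in both comparisons. Pnldc1, a PARN-like deadenylase, had an FPKM of 66.0 and 88.0 for non-injection, 108 and 64.5 for PIASy-Mut, and 9.38 and 6.18 for PIASy-WT. It fell by 3.16 on the log2 scale against non-injection (limma adjusted p = 0.0224) and by 3.29 against PIASy-Mut (limma adjusted p = 0.0219). Papola, the canonical nuclear poly(A) polymerase, had an FPKM of 48.1 and 56.2, 60.5 and 45.2, and 16.6 and 18.3 in the same order, a log2 fold change of -1.52 (limma adjusted p = 0.0339) and -1.53 (limma adjusted p = 0.0329). For both genes the PIASy-WT libraries were below all others. The list medians were -0.038 and -0.61 in the same 2 comparisons.

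Among 31 tested genes of 37 listed poly(A)-binding, m6A-reading and AU-rich-element proteins, 3 were called lower in both comparisons. Pabpn1, the nuclear poly(A)-binding protein, had an FPKM of 180 and 154 for non-injection, 179 and 152 for PIASy-Mut, and 18.9 and 23.5 for PIASy-WT, a log2 fold change of -2.92 (limma adjusted p = 0.0224) and -2.91 (limma adjusted p = 0.0219). Pabpc1, the main cytoplasmic poly(A)-binding protein, had 17.0 and 18.4, 18.1 and 11.8, and 3.35 and 3.19, a log2 fold change of -2.13 (limma adjusted p = 0.0293) and -1.87 (limma adjusted p = 0.0328). Ythdc1, the nuclear m6A reader, had 18.7 and 21.2, 22.5 and 14.4, and 4.37 and 3.82, a log2 fold change of -2.04 (limma adjusted p = 0.0316) and -1.90 (limma adjusted p = 0.0322). In all of these the PIASy-WT libraries lay below the other 4, as they did for Ythdf2. Of the cytoplasmic paralogues of Ythdf2, both added after their values were seen, Ythdf1 had an FPKM of 11.3 and 13.9, 12.0 and 7.27, and 5.69 and 7.61, with a log2 fold change of -0.83 relative to non-injection (limma adjusted p = 0.192) and -0.45 relative to PIASy-Mut (limma adjusted p = 0.462). Ythdf3 had 49.2 and 63.2, 41.0 and 55.4, and 55.7 and 60.8, with a log2 fold change of 0.061 (limma adjusted p = 0.908) and 0.28 (limma adjusted p = 0.534). The list medians were -0.17 and -0.24.

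Among 17 tested of 20 listed genes of decapping and decay from the 5′ end, 0 were called and 5 and 4 had an unadjusted p under 0.05 (28.2% and 27.7% of all tested genes did), with medians of 0.24 and 0.035. Among 14 tested of 17 listed genes of the RNA exosome and its cofactors, 2 had a positive and 12 a negative log2 fold change in each PIASy-WT comparison (50.5% and 48.3% of all tested genes were positive), with medians of -1.07 and -0.96, and 2 and 1 were called lower. Exosc2, a cap subunit of the exosome, had an FPKM of 25.1 and 26.6 for non-injection, 30.5 and 20.3 for PIASy-Mut, and 8.10 and 6.02 for PIASy-WT, a log2 fold change of -1.75 (limma adjusted p = 0.0364) and -1.70 (limma adjusted p = 0.0375). Dis3l, a cytoplasmic exosome nuclease, had 9.94 and 12.2, 10.1 and 9.04, and 3.46 and 2.39, with a log2 fold change of -1.63 (limma adjusted p = 0.0433) and of -1.44, which just missed the threshold (limma adjusted p = 0.0544).

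**Figure D4:**
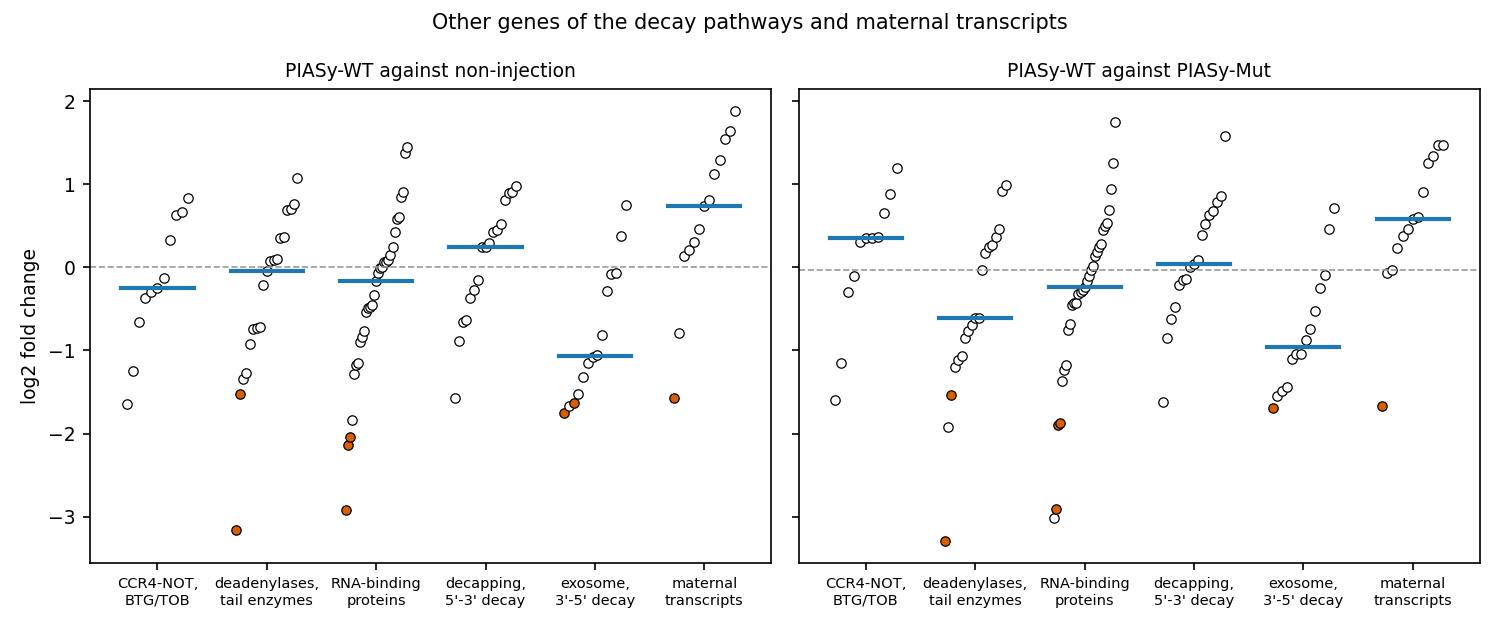
Log2 fold change of the tested genes of 6 lists in the PIASy-WT comparisons, with non-injection (left) and PIASy-Mut (right) as reference, genes being ordered by value within a list. Filled points had an adjusted p of at most 0.05, thick bars are list medians and the dashed line is the median of all tested genes. The exosome median was -1.07 and -0.96 and that of the maternal transcripts 0.74 and 0.58.

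Maternal transcripts known to be cleared around maturation and fertilization were the remaining list. Of 13 tested, 11 had a positive log2 fold change in the first PIASy-WT comparison and 10 in the one with PIASy-Mut, beside 50.5% and 48.3% of all tested genes, with medians of 0.74 and 0.58, and 0 were called higher. In PIASy-Mut against non-injection 10 of the 13 were also positive, beside 53.7% of all tested genes, with a median of 0.17. Bmp15 and Gdf9, oocyte growth factors named after their values were seen, had log2 fold changes of 1.55 (limma adjusted p = 0.0737) and 1.29 (limma adjusted p = 0.0708) against non-injection, and 1.48 (limma adjusted p = 0.0824) and 0.38 (limma adjusted p = 0.501) against PIASy-Mut. The FPKM of Bmp15 was 482 and 461 for non-injection, 328 and 745 for PIASy-Mut, and 1283 and 1478 for PIASy-WT, with the PIASy-WT libraries above the other 4. That of Gdf9 was 78.0 and 94.9, 121 and 219, and 210 and 214 in the same order, so PIASy-Mut 2 stood above both PIASy-WT libraries. Zp3, a zona pellucida glycoprotein, went the other way and was the only transcript of the list called. Its FPKM was 70.9 and 73.5, 80.6 and 74.6, and 25.1 and 22.4, a log2 fold change of -1.57 (limma adjusted p = 0.0292) and -1.67 (limma adjusted p = 0.0240).

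Against non-injection, each of these list calls was lost when a non-injection or PIASy-WT library was left out, as 0 genes of the table were then called. Against PIASy-Mut, the calls were lost without any library other than PIASy-Mut 2. Among the 10 alternatives other than leaving out a single library, 1 of which used the 4 libraries compared alone, against non-injection, Pabpn1 and Pnldc1 passed in all 10, Pabpc1 in 9, Exosc2, Ythdc1 and Zp3 in 8, Papola in 7 and Dis3l in 4. Against PIASy-Mut, Pabpn1, Pnldc1 and Zp3 passed in 9, Ythdc1 in 7, Pabpc1 in 6, and Papola and Exosc2 in 5. The signs of the 8 called genes held in all 16 alternatives of both comparisons. The sum of the 2-cell markers, most of it from Tcstv3 and Zfp352, was lower and that of the trophectoderm markers higher in PIASy-WT as well, while Pou5f1 and Nlrp5 of the 2-cell list were above non-injection in both PIASy-WT libraries and Zscan4d overlapped it. The part of either sum in these results was not tested.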

How the data were processed

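Libraries were prepared by the authors with the SMART-Seq v4 and Nextera XT kits. Reads were trimmed with Trim Galore, aligned to mm10 with STAR and counted with featureCounts, with versions not given in the sources used here, and FPKM values for 53023 genes and 6 libraries were deposited by the authors. The annotation release and strand setting are not given either, so overlapping genes on opposite strands, such as Vps37a for Cnot7, are uncertain.

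FPKM times gene length, in units of what 1 fragment is worth in that library, gave whole numbers for 100% of values above 0 (tolerance 0.001), from which the depth was taken. The table holds FPKM and not counts, so limma 3.58.1 in R 4.3.3 was used (lmFit, eBayes with trend) on log2(FPKM + 1) of all 6 libraries, with Benjamini-Hochberg adjustment over 16100 genes (FPKM of 1 or more in 2 or more libraries). The pseudocount of 1 understates changes of low genes. Genes with an adjusted p up to 0.05 were called.

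The 9 genes, the lists and the rules were chosen with earlier results of these data known. Named genes were the 9, Pias4, list genes called in a PIASy-WT comparison and the 3 genes most like Btg4, and Cnot10, Cnot3, Btg2, Ythdf1, Ythdf3, Bmp15 and Gdf9 were added after their values were seen. The search of 3′ ends was added after the files were seen. The ratios of Btg4 to Cnot7 and to Ythdf2 were not in the plan. Alternatives were other pseudocounts, filters and scalings, voom on recovered fragments, eBayes without trend, the compared libraries alone, a replicate block and leaving out each library. Promoters came from RefSeq for the 6 of 9 genes matched by symbol, which leaves out Cnot1, Cnot7 and Zfp36l2. Tables were handled with pandas 2.3.3 and numpy 2.4.6 in Python 3.11.15, intervals came from scipy 1.17.1 and plots from matplotlib 3.10.9.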

Additional observations from a re-analysis of the deposited data

How the results depend on the processing

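The signs for Btg4, Cnot7, Cnot6l, Cnot1 and Ythdf2 against both groups held in every alternative run. Against non-injection, with 1 of the 9 genes called, 0 were called with a pseudocount of 0.1 or 5, no filter, quantile normalization, centred libraries, eBayes without trend or a replicate block, 2 with the 4 libraries alone, 3 with voom, and 0 to 2 with single libraries left out. Against PIASy-Mut, with 0 called, 2 genes, Ythdf2 and Btg4, were called with an FPKM of at least 5, beside 20.4% of the 8282 genes then tested. Zfp36l2 and Pabpn1l did not enter that fit. With voom 4 were called, beside 15.0%, and the count also moved with single libraries left out.

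Over all genes against non-injection, 928 were called lower and 166 higher. The counts were 154 and 16 without a filter, 1441 and 332 with an FPKM of at least 5, 1898 and 804 with voom, 256 and 59 without trend, 1563 and 730 with the 4 libraries alone, 699 and 233 after quantile normalization, and 641 and 182 after centring. With a pseudocount of 0.1, 107 were called higher. Leaving out single libraries gave 0 to 1610 lower and 0 to 712 higher. Against PIASy-Mut, 968 were called lower and 132 higher. The counts were 243 and 11, 1483 and 207, 1881 and 533, and 0 and 0 under the filters, voom and the 4 libraries alone, 464 lower without trend, 490 and 124 after quantile normalization, 480 and 107 after centring, and 0 to 1763 lower and 0 to 865 higher with libraries left out. In PIASy-Mut against non-injection 1 was called higher, 0 with the 4 libraries alone and 0 to 1 with libraries left out. Quantile normalization moved the median of all genes to 0.12 and 0.11 in the PIASy-WT comparisons, and centring to 0.12 and 0.15.

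Replicate numbers were shared by the groups, and the labels do not say whether they pair the samples. Over 16100 genes, low ones included, the replicate differences correlated by 0.00368, 0.0851 and 0.0637 between groups, which does not decide this. With the replicate block, 719 genes were called lower and 89 higher against non-injection, and 799 and 67 against PIASy-Mut. Among the genes named, the block ended 3 calls, all against non-injection, of Ythdf2 (limma adjusted p = 0.0639), Dis3l (0.0613) and Papola (0.0503).

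Signs of small changes turned under quantile normalization (PIASy-WT against non-injection, Cnot6 0.17, and against PIASy-Mut, Cnot8 0.081), with a pseudocount of 0.1 (PIASy-WT against PIASy-Mut, Zfp36l2 -0.0037), or with a library left out. With libraries left out, log2 fold changes of PIASy-WT against non-injection ran from -0.25 to 0.021 for Cnot6, from -0.040 to 0.60 for Zfp36l2 and from -1.09 to 0.42 for Pabpn1l. Against PIASy-Mut they ran from -0.31 to 0.33 for Zfp36l2 and from -1.49 to 0.070 for Pabpn1l. In PIASy-Mut against non-injection they ran from -1.25 to 0.14 for Btg4, -0.48 to 0.17 for Cnot7, -0.27 to 0.21 for Cnot8, -0.41 to 1.15 for Pabpn1l and -0.39 to 0.26 for Ythdf2. The cause was not tested.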

Other observations

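The genes whose level was most like that of Btg4 over the 6 libraries were Trappc2, Gm6018 and Pla2g4c, with a root mean square difference of 0.14, 0.14 and 0.15 between log2 levels centred on each gene's mean, out of 7029 genes with a mean FPKM of at least 5. Pla2g4c, a phospholipase A2, had an FPKM of 118 and 109 for non-injection, 61.0 and 152 for PIASy-Mut, and 318 and 309 for PIASy-WT. Trappc2, a subunit of the TRAPP vesicle tethering complex, had 28.2 and 31.1, 13.8 and 30.9, and 74.1 and 68.3 in the same order. Gm6018 had 7.86 and 8.80, 2.97 and 9.66, and 22.0 and 18.0. The choice by likeness fixes that these genes share the order of the libraries with Btg4.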
